A study of Mus musculus with 6 samples.

Results

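The 54 genes described here act in mitosis: they encode the switch that starts it, the kinases that run it, the kinetochores and spindle that move chromosomes, and the proteins that condense chromosomes and part the daughter cells. They were taken by gene symbol from a list of G2/M genes. The rule uses no measured value, but the list was drawn up with earlier results of these data known. All 54 were found among the 49652 gene rows of the deposited count tables. The tables come from bulk RNA-seq of muscle stem cells, which repair skeletal muscle after injury, in a mouse model that deletes Opa1, which encodes a fusion protein of the inner mitochondrial membrane. Animals aged 8 to 10 weeks carried the Opa1/Pax7-CreERT2 design, in which the Pax7 gene, active in muscle stem cells, drives a Cre recombinase that tamoxifen switches on. Tamoxifen was gavaged for 5 days in both groups, and 3 days later cells were sorted from uninjured hindlimb muscle as positive for α7-integrin and VCAM and negative for Sca1, CD45 and CD31. The WT group (n = 3 libraries) was Cre negative and the KO group (n = 3 libraries) was Cre positive, so the presence of Cre and the loss of Opa1 cannot be told apart. The labels do not say how many animals went into a library, and p-values therefore measure only the spread between these libraries, which may be technical in part.

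Most muscle stem cells of uninjured adult muscle rest outside the cell cycle, and transcripts of the mitotic machinery are scarce in resting cells. In cycling cells these genes are switched on together late in the cycle. The transcription factor FOXM1 and the MuvB complex act on them, the latter through a short promoter element called the CHR, and the factor NF-Y binds CCAAT boxes that often stand nearby. Cyclin B with CDK1 then starts mitosis, the spindle checkpoint delays chromosome separation until all kinetochores are attached, and the anaphase-promoting complex with CDC20 ends it by destroying cyclin B and securin. Antibodies to the Ki-67 protein, the product of Mki67, are a common stain for cycling cells.

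Gene counts ranged from 41410136 to 56606886 per library, with 23812 to 24848 genes detected. Levels are given as CPM, read counts divided by the library size after TMM scaling. Opa1 itself stood at 68.2, 31.4 and 68.8 CPM in WT replicates 1 to 3 and at 17.5, 34.4 and 27.1 CPM in KO replicates 1 to 3. As the level of the second WT library fell among the KO values, which goes against its genotype, it is written throughout as "the library labelled WT replicate 2". Opa1 had a log2 fold change, KO minus WT, of -1.09 with a standard error (SE) of 0.37 and an adjusted p of 0.99998 by edgeR's quasi-likelihood test, and an exact two-sided permutation test gave p = 0.2, where 0.1 is the smallest possible. With the library labelled WT replicate 2 left out it was -1.38. Xist is expressed in female cells. It stood at 0.0209 CPM in the library labelled WT replicate 2 and at 243.7 to 508 CPM in the other 5 libraries. The Y-linked gene Ddx3y stood at 0.0354, 226 and 23.3 CPM in WT replicates 1 to 3 and at 0.141, 22.9 and 90.2 CPM in KO replicates 1 to 3. WT replicate 3 and KO replicates 2 and 3 thus held both transcripts. Xist and Ddx3y differ with the sex of the animals and do not bear on the Opa1 genotype. By these genes the WT libraries were not repeats of the same cells, nor was KO replicate 1 a repeat of KO replicate 2 or 3. The mix of sexes in each library was not tested. Pax7, the defining gene of muscle stem cells, lay between 252.1 and 453.4 CPM in all 6 libraries.

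The mitotic genes split the 6 libraries in a way that did not follow genotype. KO replicate 1 and WT replicates 1 and 3 held far more of these transcripts than the library labelled WT replicate 2 and KO replicates 2 and 3. Summed over the 54 genes, the level was 1158, 418.9 and 1155 CPM in WT replicates 1 to 3 and 2017, 500.9 and 494.5 CPM in KO replicates 1 to 3. In 49 of the 54 genes (90.7%) each of WT replicates 1 and 3 and KO replicate 1 lay above each of the other 3 libraries, an order that 10.8% of all 18832 genes tested showed. For 51 members KO replicate 1 held the highest level (94.4%), against 18% of all genes tested. This order was noticed in the values and is given as a description with no test. In bulk RNA, fewer cycling cells and less mitotic RNA per cell cannot be told apart. Ddx3y was nearly absent from WT replicate 1 and KO replicate 1, which are among the high libraries, and was present in all 3 low libraries, but also in WT replicate 3, a high one. Its part in the split was not tested.

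**Figure D1:**
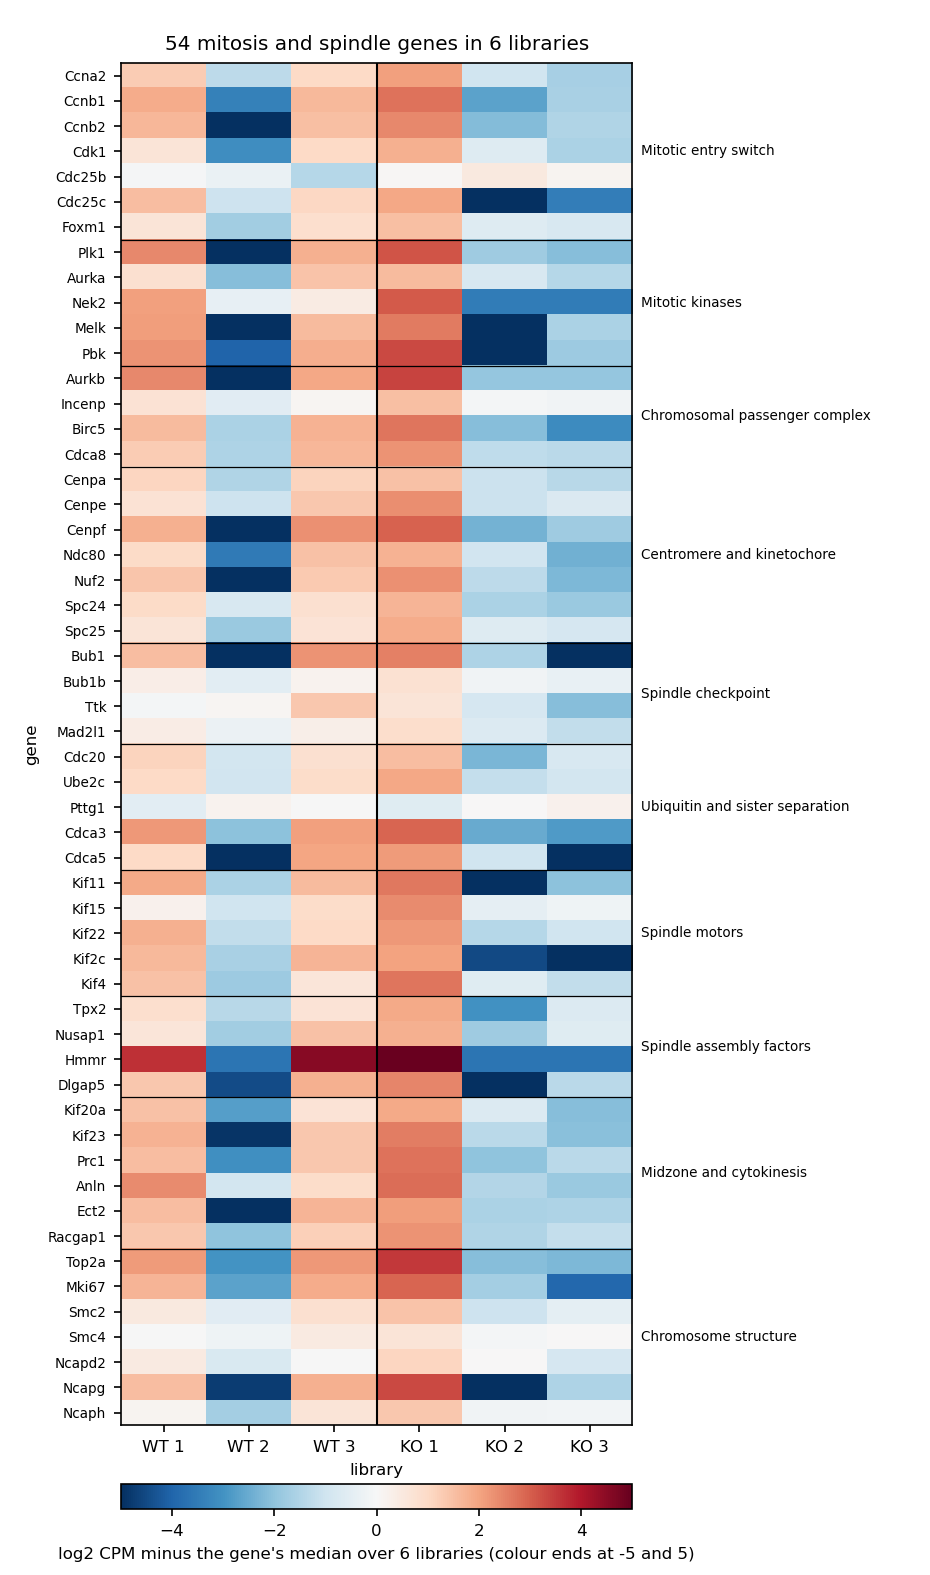
Level of each of the 54 mitosis and spindle genes (rows, grouped by role) in the 6 libraries (columns), as log2 CPM minus the gene's median over the libraries, with colours ending at 5 log2 units to either side. In 49 rows WT replicates 1 and 3 and KO replicate 1 are all above the other 3 libraries, and KO replicate 1 is the highest in 51 rows.

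Within each genotype, these genes varied far more than genes in general. The SD of log2 CPM over the 3 WT libraries had a median of 1.81 among the members and of 0.39 among all genes tested. Over the 3 KO libraries the medians were 2.1 and 0.37. From the lowest to the highest of the 6 libraries, the median member spanned 4.76 log2 units and the median gene 1.09. A span above 3 log2 units occurred in 45 members (83.3%) and in 16.7% of genes tested. The 9 members with smaller spans were Cdc25b, Incenp, Cenpa, Bub1b, Mad2l1, Pttg1, Smc2, Smc4 and Ncapd2.

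Pairs of libraries make the split concrete. The median member was 9.08-fold higher in WT replicate 1 than in the library labelled WT replicate 2, with 52 of 54 members higher. KO replicate 1 exceeded KO replicate 2 by 12.2-fold and KO replicate 3 by 13.4-fold in the median, again with 52 members higher in each case. WT replicates 1 and 3 differed by a median of 0.07 log2 units, and 4 members differed between them by over 2-fold, namely Cdc25b, Nek2, Ttk and Anln. KO replicate 1 was above WT replicate 1 for 53 members, by 1.81-fold in the median. KO replicates 2 and 3 differed by a median of 0.06 log2 units, and 18 members differed by over 2-fold.

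In the library labelled WT replicate 2 and in KO replicates 2 and 3, many of these genes were at the edge of detection. Members under 1 CPM numbered 23, 14 and 18 there, against 0 in WT replicate 1, 1 in WT replicate 3 and 0 in KO replicate 1. Zero counts occurred for 7 members in the library labelled WT replicate 2, for 8 in KO replicate 2 and for 4 in KO replicate 3. A count of 0 allows a level of up to 0.0626, 0.0723 and 0.0528 CPM in these libraries. Hmmr, a microtubule-binding spindle protein, was at 0 in all 3, against 6.17 and 11.5 CPM in WT replicates 1 and 3 and 15.2 CPM in KO replicate 1.

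A few members were abundant in every library. Pttg1, Smc4 and Cdc25b together made up 21.5% of all member counts in WT replicate 1 (95% Wilson interval 21.2% to 21.8%), 23.1% in WT replicate 3 (22.8% to 23.5%) and 15.3% in KO replicate 1 (15.1% to 15.6%). Their part was 64% in the library labelled WT replicate 2 (63.3% to 64.7%), 62.5% in KO replicate 2 (61.8% to 63.1%) and 63.2% in KO replicate 3 (62.6% to 63.8%). These intervals cover counting error only, since the reads carry no molecular identifiers in the sources used here. Without the 3 genes, the summed level was 908.6, 150.8 and 887.8 CPM in WT replicates 1 to 3 and 1708, 187.9 and 182.1 CPM in KO replicates 1 to 3.

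The promoters of the members are shown next, with the elements known to mark late cell cycle genes. The members were picked as G2/M genes, so a high share of these elements follows from that choice and is no result of these libraries. RefSeq promoter windows on GRCm38.p6, from 250 bases before to 50 bases after the start of the gene, were at hand for 43 of the 54 members. Both strands were searched for the CHR letters TTTGAA or TTCGAA and for CCAAT, and a CCAAT and a CHR match can share 1 base at their ends. A CHR match was found in 33 of the 43 windows (76.7%), against 19.4% of all 27025 windows. CCAAT was found in 31 (72.1%), against 37.9%, and both motifs in 28 (65.1%), against 7.7%. Within 40 bases of the start, a CHR match stood in 29 member windows (67.4%) and in 4.5% of all windows. A pair of CCAAT matches starting 30 to 35 bases apart stood in 10 (23.3%), against 1.7%. The distances of the last pair of searches were chosen after the matches were seen, and a match describes letters and is no evidence of binding.

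The 6 stretches below are the first members, in order of role, among those described with values in every library whose windows hold both motifs. They are written 5′ to 3′ on the strand of the gene, with CHR and CCAAT letters of either strand in capitals (CCAAT reads ATTGG and TTTGAA reads TTCAAA on the opposite strand). Ccnb2 (chr9:70421545-70421674, minus strand), Cdk1 (chr10:69352913-69353032, minus strand), Cdc25b (chr2:131186828-131186960, plus strand), Plk1 (chr7:122159315-122159434, plus strand), Spc25 (chr2:69206184-69206333, minus strand) and Bub1b (chr2:118598021-118598210, plus strand) are shown. The CHR match of Plk1 lies downstream of the stretch printed.
Ccnb2: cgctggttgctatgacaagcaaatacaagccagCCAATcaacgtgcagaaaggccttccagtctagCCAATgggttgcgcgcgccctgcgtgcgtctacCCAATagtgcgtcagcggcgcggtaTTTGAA
Cdk1: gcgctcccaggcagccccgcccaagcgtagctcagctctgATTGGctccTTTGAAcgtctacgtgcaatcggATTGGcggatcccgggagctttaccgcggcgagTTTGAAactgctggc
Cdc25b: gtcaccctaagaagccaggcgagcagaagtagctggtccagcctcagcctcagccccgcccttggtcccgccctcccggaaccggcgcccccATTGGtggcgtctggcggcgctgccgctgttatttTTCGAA
Plk1: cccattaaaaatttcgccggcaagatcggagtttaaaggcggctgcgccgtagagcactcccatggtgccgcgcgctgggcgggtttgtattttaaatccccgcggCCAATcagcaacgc
Spc25: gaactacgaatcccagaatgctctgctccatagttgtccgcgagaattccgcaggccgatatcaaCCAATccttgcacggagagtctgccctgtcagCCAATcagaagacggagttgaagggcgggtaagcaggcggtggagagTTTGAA
Bub1b: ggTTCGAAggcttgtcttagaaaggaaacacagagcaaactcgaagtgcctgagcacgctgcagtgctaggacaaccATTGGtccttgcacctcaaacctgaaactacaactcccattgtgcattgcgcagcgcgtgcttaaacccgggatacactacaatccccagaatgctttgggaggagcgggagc

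In these stretches the cyclin gene Ccnb2 holds 3 CCAAT boxes and a CHR match just downstream of its start, and Cdk1 holds 2 CHR matches and 2 CCAAT boxes. The order of the libraries was seen in members with both motifs and in members without both. Of the 28 members with both, 25 had WT replicates 1 and 3 and KO replicate 1 above the rest, and of the 15 with 1 motif or neither, 14 did. Cdc25b, with both motifs, was outside that order. So was Pttg1, whose window holds neither. Among other lists, both motifs stood in 50% of 50 windows of further mitosis genes, 25% of 8 windows of cohesin genes, 23.1% of 13 windows of MuvB, E2F and RB family regulators and 17.5% of 40 windows of S phase genes. The shares were 6.2% of 16 windows for the anaphase-promoting complex and its partners and 0% of 10 windows for D cyclins and CDK inhibitors.

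**Figure D2:**
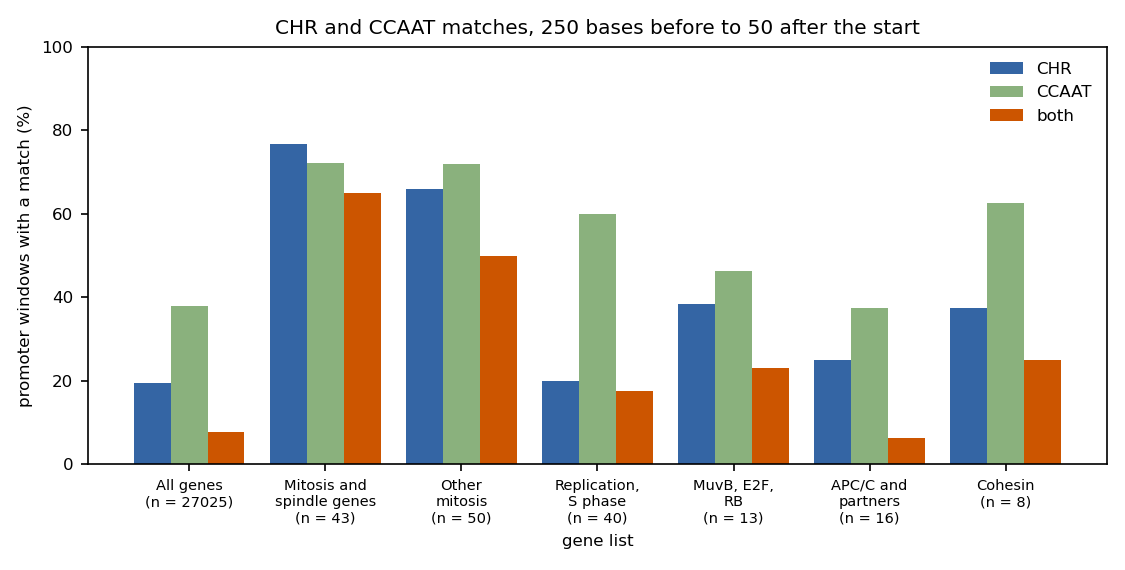
Share of promoter windows (percent, bars from 0) that hold a CHR match, a CCAAT match or both, for the mitosis and spindle genes, 5 other gene lists and all windows (APC/C is the anaphase-promoting complex). Both motifs are in 65.1% of the 43 member windows and in 7.7% of all windows.

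The switch into mitosis was led by Cdc25b in CPM, and its other genes followed the split between libraries. Values are given from here on for WT replicates 1 to 3 and then KO replicates 1 to 3, with the second value from the library labelled WT replicate 2. Ccnb1, encoding cyclin B1 (chr13:100778650-100786570, minus strand), was at 18.3, 0.459 and 15.9 CPM and at 33.2, 0.772 and 1.6 CPM. The cyclin B2 gene Ccnb2 was at 27.9, 0.0418 and 25.4 CPM and at 47.2, 1.93 and 3.06 CPM. Both cyclins were high in the same 3 libraries and low in the other 3, and the value of Ccnb2 in the library labelled WT replicate 2 is under the limit that a count of 0 allows. Cdk1, their kinase partner (chr10:69335146-69352938, minus strand), was at 20.6, 1.48 and 25.8 CPM and at 44.6, 8.25 and 4.35 CPM. Foxm1, the transcription factor (chr6:128362967-128376146, plus strand), was at 4.4, 0.814 and 4.94 CPM and at 7.95, 1.74 and 1.55 CPM. Cdk1 and Foxm1 had the same 3 libraries on top as the cyclins, over a smaller span. KO replicate 1 exceeded KO replicate 2 by 5.41-fold in Cdk1, by 4.58-fold in Foxm1 and by 43.1-fold in Ccnb1.

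Cdc25b, whose phosphatase removes the inhibitory phosphates from CDK1 (chr2:131186949-131198497, plus strand), did not share this order. It was at 81.7, 68.04 and 31.9 CPM in WT and at 89.7, 118.5 and 93.6 CPM in KO. Each KO library lay above each WT library, with 60.5 ± 25.7 CPM (SD, n = 3) in WT and 101 ± 15.7 CPM (SD, n = 3) in KO. It was the only member whose genotypes did not overlap (1.85% of the 54), where 3.43% of all genes tested had every KO library above every WT library. The reverse held for 0 members and 3.12% of genes tested, and either of these for 1 member and 6.55% of genes tested. The log2 fold change was 0.73, SE 0.33, with a 95% interval of -0.06 to 1.52 and an adjusted p of 0.99998 by edgeR's quasi-likelihood test. Cdc25b therefore did not pass the test.

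Mitotic kinases showed the widest spans of any role, with a median of 8.18 log2 units from the lowest to the highest library. Plk1, a kinase of centrosomes, kinetochores and cytokinesis (chr7:122159439-122169873, plus strand), was at 11.3, 0.0209 and 7.2 CPM and at 18.5, 0.579 and 0.44 CPM. Pbk, a mitotic serine/threonine kinase, spanned 10.4 log2 units, more than any other member, at 25.6, 0.292 and 19.1 CPM and at 52.9, 0 and 1.46 CPM. The level of Plk1 in the library labelled WT replicate 2 rests on 1 read and is under the limit that a count of 0 allows. Melk had 0 counts in the library labelled WT replicate 2 and in KO replicate 2, and Nek2 in KO replicates 2 and 3.

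The chromosomal passenger complex corrects faulty kinetochore attachments through its kinase, Aurora B. Aurkb, the gene for that kinase, was at 14.4, 0 and 10.3 CPM and at 28.7, 0.675 and 0.687 CPM. Birc5, encoding the survivin subunit, was at 16.3, 1.82 and 18.4 CPM and at 35.2, 1.23 and 0.581 CPM. The scaffold gene Incenp was at 16.7, 6.93 and 11 CPM and at 28.7, 9.43 and 9.04 CPM. All 3 had the same 3 libraries on top, but Incenp had at least 6.93 CPM in every library, so the kinase gene varied between libraries more than that of its scaffold.

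Kinetochore genes, whose products tie chromosomes to microtubules, all 7 placed WT replicates 1 and 3 and KO replicate 1 above the rest. Spc25, a subunit of the NDC80 complex, was at 27.1, 4.76 and 27.6 CPM and at 62.2, 10.9 and 9.51 CPM. Spc24, its partner, was at 21.02, 6.33 and 18.8 CPM and at 35.4, 3.64 and 2.99 CPM. The remaining pair of that complex was lower in the low libraries, with Nuf2 at 0 counts and Ndc80 at 0.292 CPM in the library labelled WT replicate 2.

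Spindle checkpoint genes had the smallest median span of any role, 2.76 log2 units. Mad2l1, encoding the checkpoint protein MAD2, was at 23.4, 14.9 and 22.5 CPM and at 33.3, 11.4 and 7.87 CPM. Bub1b, encoding BUBR1, was at 17.4, 9.62 and 15.7 CPM and at 23.3, 12.4 and 10.9 CPM. Both were above 7 CPM in every library. Ttk, encoding the checkpoint kinase MPS1, was at 3.45, 4.03 and 9.44 CPM and at 5.82, 2.07 and 0.828 CPM, so that WT replicate 3 and not KO replicate 1 was its highest library. The fourth gene, Bub1, was at 0 in the library labelled WT replicate 2 and in KO replicate 3.

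Among genes of protein destruction and sister separation, Cdc20 and Pttg1 went different ways. Cdc20, the activator of the anaphase-promoting complex, was at 40.6, 9.9 and 32 CPM and at 53.8, 3.74 and 10.6 CPM. Pttg1, encoding securin, which holds the sister-separating protease in check (chr11:43420250-43426251, minus strand), was at 73.2, 117.5 and 104.0 CPM and at 67.9, 104.7 and 119.9 CPM. Its lowest libraries were WT replicate 1 and KO replicate 1, and its span of 0.82 log2 units was the smallest of the 54. Pttg1 was the single member with WT replicates 1 and 3 and KO replicate 1 each below the other 3 libraries, an order seen in 9.81% of genes tested. Per kilobase of exon, Pttg1 also had the highest mean level of all members, at 48.9 CPM per kb, followed by Cdc25b at 21.6 and Smc4 at 20.8 CPM per kb.

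Spindle motors are kinesins that slide and shorten microtubules. Kif22, which pushes chromosome arms outwards, was at 19.7, 2.38 and 11.4 CPM and at 26.0, 2.1 and 2.82 CPM. Kif2c, a microtubule depolymerase, was at 9.54, 0.981 and 9.99 CPM and at 12.5, 0.0964 and 0.0176 CPM, the last value being under the limit that a count of 0 allows. Kif15, which helps to keep spindle poles apart, was at 3.41, 1.44 and 5.67 CPM and at 15.3, 2.17 and 2.54 CPM. All 5 motors had KO replicate 1 highest, and Kif15 had the largest positive log2 fold change of the 54 members (0.93, SE 0.87), which did not pass the test (edgeR's adjusted p = 0.99998).

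Spindle assembly factors had a median span of 6.43 log2 units. Tpx2, the activator of Aurora A, was at 28.6, 6.08 and 25.8 CPM and at 59.1, 1.91 and 9.72 CPM. Nusap1, which bundles microtubules, was at 10.4, 2.02 and 19.1 CPM and at 23.8, 1.98 and 4.51 CPM. In both, KO replicate 2 was the lowest library, and the other factors, Hmmr and Dlgap5, had 0 counts there.

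Genes of the spindle midzone and of cytokinesis, 6 in all, each had KO replicate 1 highest. Racgap1, a part of centralspindlin, was at 39.4, 3.8 and 35.5 CPM and at 73.0, 5.42 and 6.69 CPM. Kif20a, a midzone kinesin, was at 24.8, 1.31 and 14.4 CPM and at 33.8, 5.67 and 2.06 CPM. The count of Kif20a is uncertain, since 29.3% of its exon bases are shared with Cdc23 on the opposite strand. Depending on the strand setting, reads there may have been set aside as ambiguous. Ect2, which activates the contractile ring, had 0 counts in the library labelled WT replicate 2.

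Chromosome structure genes gave the highest summed level of the 10 roles in every library but the one labelled WT replicate 2, at 284.8, 128.7 and 334.9 CPM in the WT group and 566.9, 151.4 and 153.2 CPM in the KO group. Top2a, the topoisomerase that untangles sister DNA (chr11:98992943-99024189, minus strand), was at 52.5, 1.48 and 54.04 CPM and at 140.9, 2.8 and 2.52 CPM. Mki67 (chr7:135689784-135716361, minus strand) was at 34.3, 1.59 and 38.1 CPM and at 78.7, 3.18 and 0.652 CPM. For both genes the library labelled WT replicate 2 lay with KO replicates 2 and 3, and WT replicates 1 and 3 lay between those and KO replicate 1. The KO libraries differed among themselves in Mki67 by 24.7-fold (replicate 1 over 2) and 121-fold (replicate 1 over 3). The condensin ATPase genes were steadier. Smc2 was at 47.4, 22.8 and 60.2 CPM and at 90.9, 16.7 and 24.6 CPM. Smc4 was at 94.4, 82.5 and 131 CPM and at 152, 89.8 and 99.0 CPM. Smc4 spanned 0.88 log2 units, although both subunits form the core of the same complexes, and WT replicate 1 lay below KO replicate 3 in Smc4 and above it in Smc2.

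**Figure D3:**
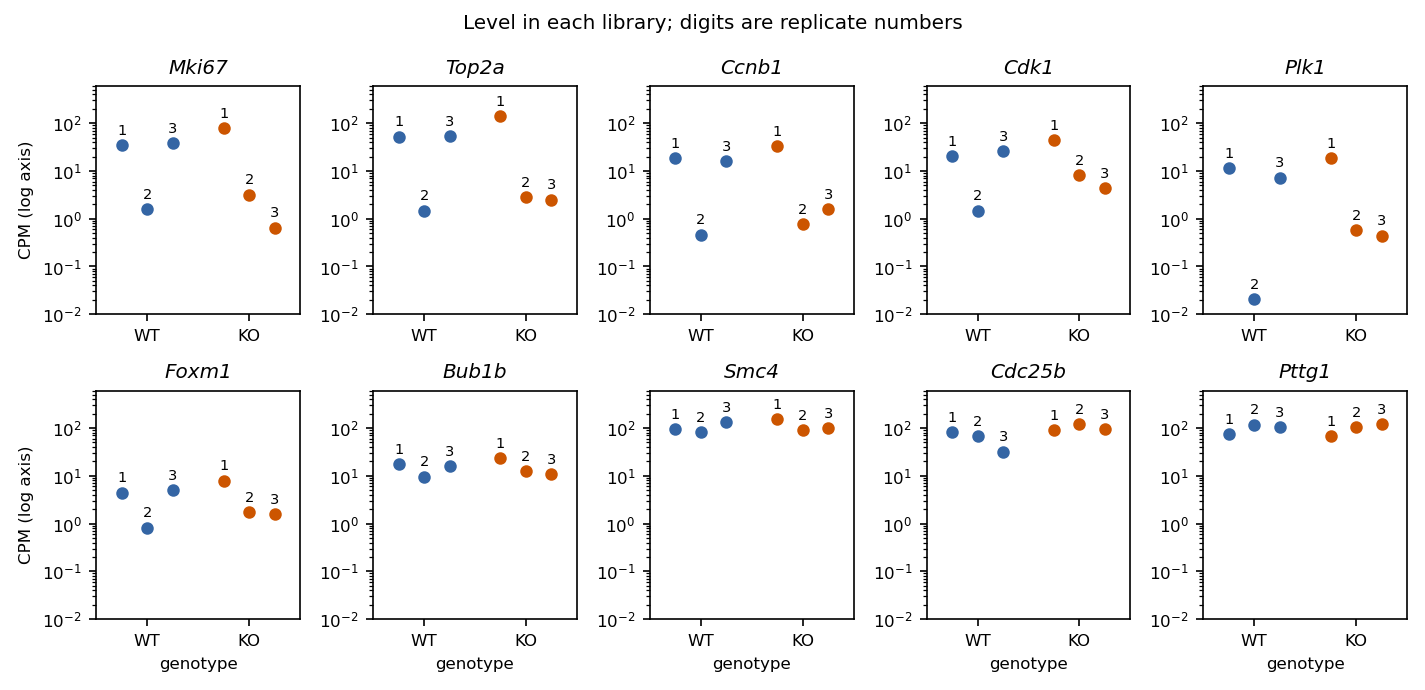
Level of 10 mitosis and spindle genes in each library (points, CPM on a log axis), with WT and KO libraries side by side and labelled by replicate. Mki67, Top2a, Ccnb1, Cdk1, Plk1, Foxm1 and Bub1b place WT replicates 1 and 3 and KO replicate 1 on top, whereas Pttg1, Smc4 and Cdc25b do not split the libraries this way.

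Set against that spread, none of the 54 genes passed edgeR's test of KO against WT. The number of members called at an adjusted p under 0.05 was 0, as was that over all 18832 genes tested (background 0%). At an unadjusted p under 0.05 there were 0 members, where 2.09% of all genes tested had one. DESeq2 called 0 members, against 0.106% of genes tested, and gave 1 member, Cdc25b, an unadjusted p under 0.05, against 2.76% of genes tested. DESeq2 gave no p for 11 members because of its check for outlying counts, Mki67 and Top2a among them. Of the 54 log2 fold changes 31 were positive (57.4%, against 51% of all genes), with a median of 0.03 beside 0.01 for all genes. They ran from -0.96 in Ttk to 0.93 in Kif15. With 1 library left out, Ttk ranged from -1.96 (without KO replicate 1) to -0.36 (without WT replicate 3), and Kif15 from -0.57 (without KO replicate 1) to 1.46 (without WT replicate 3).

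The precision of these fold changes was low. The median SE was 1.19 log2 units among the members and 0.38 among all genes tested. Mki67 had 24.7 ± 20.1 CPM (SD, n = 3) in WT and 27.5 ± 44.3 CPM (SD, n = 3) in KO. Its log2 fold change of 0.16 had a 95% interval of -3.7 to 4.01. Top2a had 36.0 ± 29.9 CPM (SD, n = 3) in WT and 48.7 ± 79.8 CPM (SD, n = 3) in KO. Its log2 fold change of 0.44 had an interval of -3.53 to 4.4. Ccnb1 had a log2 fold change of 0.04 with an interval of -3.64 to 3.71. By contrast, the interval of Pttg1 was -0.63 to 0.61 around a log2 fold change of -0.01, and Smc4 had 0.14 with an SE of 0.26. A difference of 2-fold in either direction would thus lie outside the interval of Pttg1. This does not hold for every member with a small span, as the interval of Bub1b was -0.76 to 1.01. For Mki67, Top2a and Ccnb1, differences of over 8-fold in either direction lie inside the interval.

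**Figure D4:**
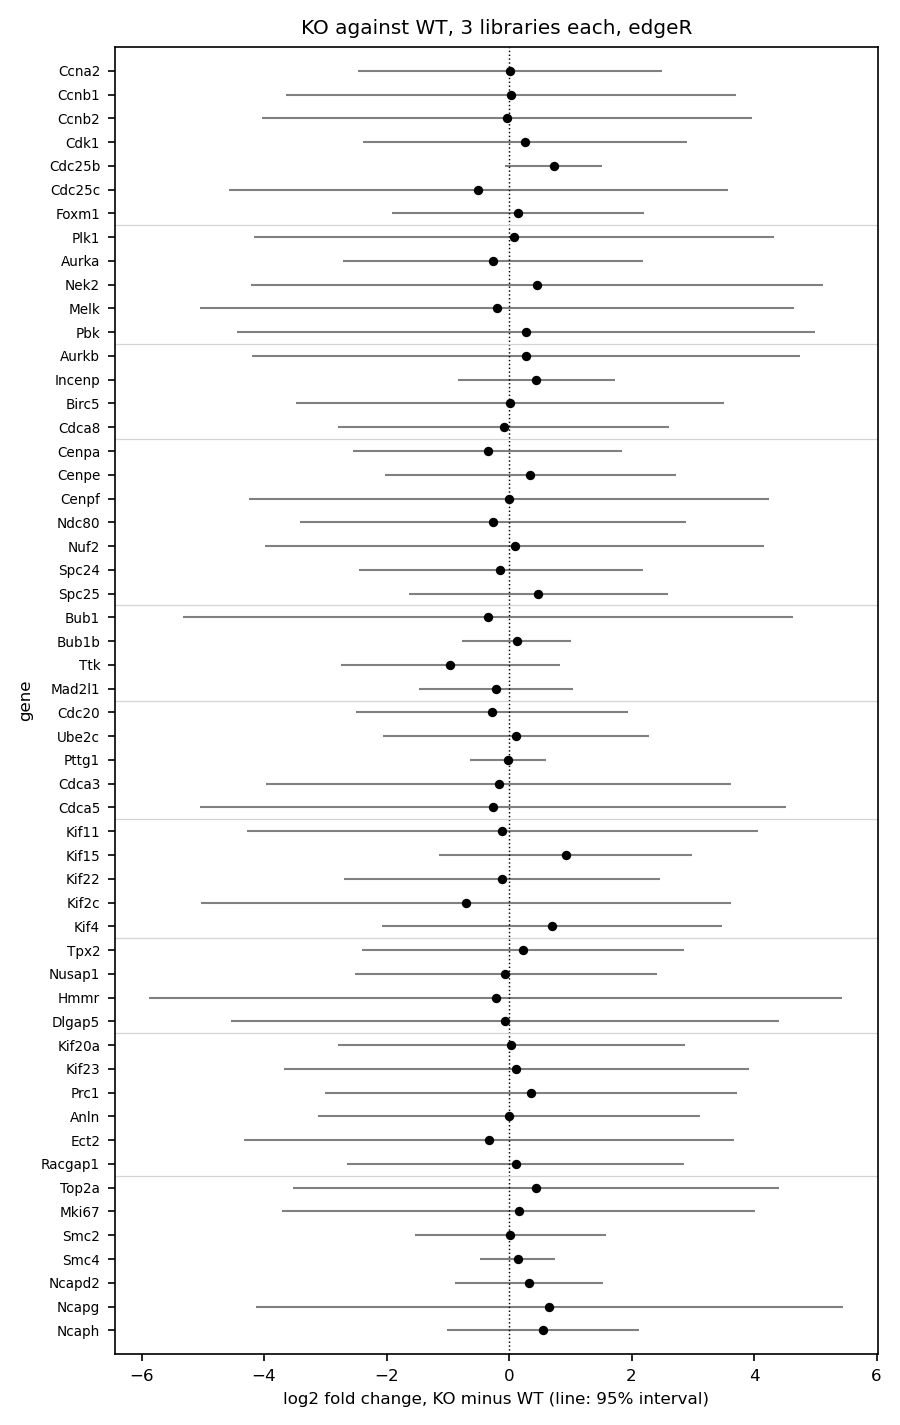
Log2 fold change, KO minus WT, of each of the 54 members (points) with its 95% interval (lines), grouped by role. The points lie between -0.96 and 0.93, and the intervals of Pttg1 and Smc4 are among the narrowest.

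Single libraries decided the direction of the list. Without KO replicate 1 the median log2 fold change was -2.23, beside -0.01 for all genes, and 2 of 54 members were positive. In that fit 18 members had an unadjusted p under 0.05 by edgeR, against 4.1% of all genes tested, and 0 were called. The members move together, so these 18 do not count as separate results. Mki67 was then at -3.7, Top2a at -3.76 and Plk1 at -3.6. Without the library labelled WT replicate 2 the median was -0.47 with 11 positive, and without KO replicate 3 it was 0.52 with 51 positive. Leaving out WT replicate 1, WT replicate 3 or KO replicate 2 gave medians of 0.42, 0.39 and 0.47. Cdc25b was positive in all 6 such fits, from 0.42 to 1.01.

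**Figure D5:**
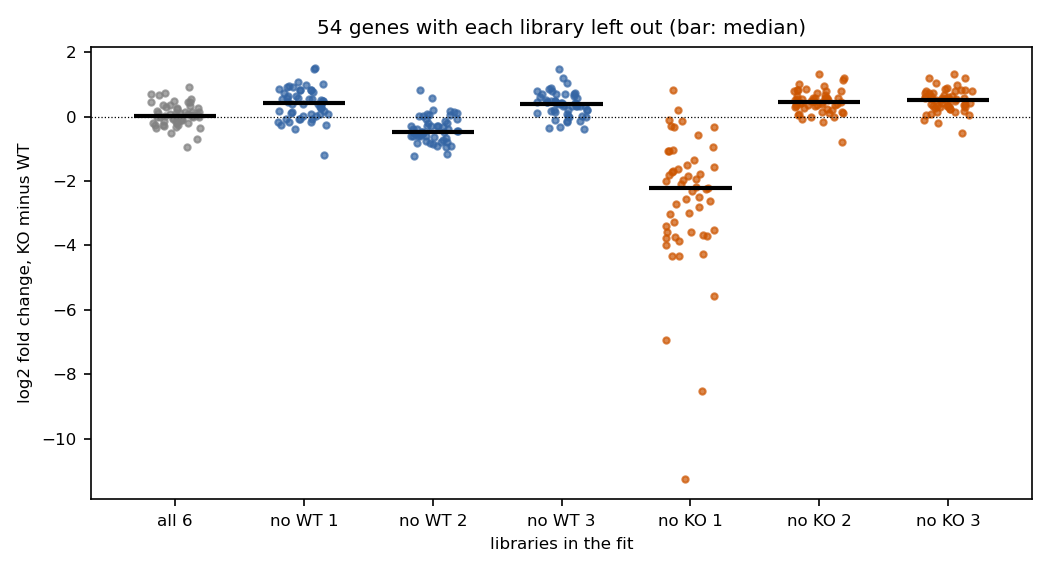
Log2 fold changes of the 54 members (points), KO minus WT, with all libraries and with each library left out in turn (horizontal axis); bars mark the medians. The median is 0.03 with all libraries, -2.23 without KO replicate 1 and between -0.47 and 0.52 in the other 5 fits.

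Other genes of the cell cycle were taken as lists, and edgeR called 0 genes in each. Among 60 further mitosis genes, 47 had the same order of libraries, beside 10.8% of all genes tested, and the median span was 4.12 log2 units. Positive fold changes were found for 37 of them, with a median of 0.1 over the list. Without KO replicate 1, 2 of the 60 were positive, with a median of -1.29, and 19 were without the library labelled WT replicate 2, with a median of -0.25. Their most abundant member, the histone variant gene H2afz, was at 285.9, 193.3 and 333.0 CPM and at 440.9, 166.1 and 203.4 CPM. Hjurp, the chaperone that deposits CENP-A, was at 107.4, 79.2 and 122.3 CPM and at 144.4, 102.9 and 75.4 CPM. Both had the same order of libraries as most of the 54 genes, within a much smaller span than Plk1 or Pbk.

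S phase genes, which copy DNA before mitosis, spanned less. Of 50, 28 had that order and 48 were highest in KO replicate 1, beside 10.8% and 18% of all genes tested. Their median span was 1.98 log2 units. Their summed level was 1622, 1052 and 1427 CPM in the WT group and 2878, 1073 and 1083 CPM in the KO group. Mcm7, a subunit of the replicative helicase, was at 127.4, 101.0 and 123.9 CPM and at 159.6, 86.3 and 100.1 CPM. Slbp, which binds histone mRNA, was at 97.8, 95.9 and 102.5 CPM and at 189.3, 86.2 and 106.3 CPM. Positive fold changes were found for 47 of the 50 with a median of 0.39, but for 7 with a median of -0.37 without KO replicate 1.

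Further lists of cell cycle and muscle stem cell genes had smaller spans. The order above was seen in 10.8% of all genes tested. Of 17 genes for the anaphase-promoting complex and proteins that act with or upon it, 5 had the order above and the median span was 0.5 log2 units, with summed levels of 1739 to 1933 CPM. Anapc5, a subunit of the complex, and Bub3, a checkpoint protein and no subunit, were the most abundant and ranged from 281.9 to 391 CPM and from 185.6 to 237.4 CPM. Of 12 genes for cohesin, the ring that holds sister chromatids together, 0 had the order, with a median span of 0.53. Nipbl, its loader, ranged from 322.4 to 463 CPM and Smc3, a ring subunit, from 223.6 to 274.2 CPM. Of 18 genes for MuvB, E2F and RB family regulators, 6 had the order, with a median span of 1.08. The MuvB subunit gene Rbbp4 was among the 2 most abundant of these, at 291.2 to 397.5 CPM, with Tfdp2 at 79.7 to 195.1 CPM. Of 14 genes of muscle stem cell identity and differentiation, 3 had the order, Myog among them, with a median span of 0.94. The most abundant were Chodl at 2449 to 5869 CPM and Sdc4 at 1045 to 1902 CPM.

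The summed levels of the leukocyte and tenocyte markers, and the single gene Acta2, followed the split between libraries. Taken gene by gene, few of the leukocyte and tenocyte markers did. The summed level of 12 leukocyte genes, 8 of them tested, was 9.33, 21.6 and 8.85 CPM in the WT group and 7.63, 18.3 and 23.5 CPM in the KO group, lowest in the 3 libraries with high mitotic transcripts. Of the 8 tested leukocyte genes, 2 had each of those 3 libraries below each of the others, beside 9.81% of all genes tested. Ptprc, which encodes CD45, was at 0 in WT replicate 1, the library labelled WT replicate 2 and KO replicate 1, and at 0.337, 0.651 and 0.528 CPM in WT replicate 3 and KO replicates 2 and 3. The 7 tenocyte genes, 6 of them tested, summed to 8.53 to 15.3 CPM in WT and 8.11 to 17.02 CPM in KO and were likewise lowest in those 3 libraries, single genes in 1 of 6 cases, while Scx had no such order. Acta2, the first of the 9 smooth muscle and pericyte genes, had the order of the mitotic genes, at 981.3, 313.1 and 504 CPM and at 739.9, 260.2 and 286.2 CPM. That list as a whole summed to 768.2 to 1318 CPM in WT and 741.4 to 1036 CPM in KO. Of its 9 genes, 2 were in this order and 4 in the reverse, beside 10.8% and 9.81% of all genes tested. The part of these cells in the split was not tested.

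The sums of 4 further marker lists overlapped between the libraries with high and with low mitotic transcripts. Over the WT and over the KO libraries they ranged from 132.4 to 278.3 and from 130 to 255.8 CPM for 11 endothelial genes, where Pecam1 was at 4.36 to 22.5 CPM. They ranged from 920.3 to 1375 and from 762.5 to 960.9 CPM for 11 fibro-adipogenic genes (Pdgfra at 0.0241 to 2.56 CPM), and from 159.8 to 577.8 and 177.4 to 432.5 CPM for 11 mature fibre genes (Acta1 at 77.3 to 340.9 CPM). The 7 erythroid genes summed to 99.1 to 423.4 and 33.0 to 257.2 CPM (Hbb-bs at 19.1 to 229.7 CPM). WT replicates 1 and 3 and KO replicate 1 each lay below the others in 3 of 11 endothelial genes. This also held for 1 of 11 fibro-adipogenic, 2 of 11 mature fibre and 0 of 5 tested erythroid genes, beside 9.81% of all genes tested. Reads assigned to no feature were the least frequent in the 3 libraries with high mitotic transcripts, at 11.15% and 14.64% in WT replicates 1 and 3 and 11.57% in KO replicate 1, against 15.45% to 17.02% in the others. Their part in the split was not tested either.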

How the data were processed

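Bulk RNA-seq of 3 WT and 3 KO libraries was analysed. The files deposited by the authors hold raw counts of reads per gene, as whole numbers. Per the submitters' processing notes, reads were handled with Trim Galore 0.5.0, cutadapt 2.5, STAR 2.6.0c and HTSeq 0.6.1p2 on GRCm38. Which annotation and strand setting were used is not given in the sources used here. For the 17 members that share exon bases with another gene, reads in these bases may have been set aside as ambiguous, depending on the strand setting. Reads aligned more than once (14.82% to 24.57%) were not counted, which makes members with pseudogenes (Ccnb1, Ccnb2, Kif22, Kif4) uncertain. Rows that name no gene were left out. They included reads without a feature (11.15% to 17.02%) and ambiguous reads (1.21% to 1.42%).

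Symbols and positions came from GENCODE M21 by gene ID (49320 of 49652 rows matched), and promoters from RefSeq. KO was compared with WT in R 4.3.3 with edgeR 4.0.16 (quasi-likelihood, robust, TMM, the package's filter, which kept 18832 genes and all 54 members). Benjamini-Hochberg adjustment ran over all genes kept, and calls were made at an adjusted p under 0.05. For spread, log2 CPM had a prior count of 2; fold changes use a prior count of 0.125. The size of a log2 fold change over the square root of its F gave the SE, from which 95% intervals follow. DESeq2 1.42.0, limma 3.58.1 (voom), other scalings and filters, and leaving out each library were alternatives. Tables and figures were made with Python 3.11.15, pandas 2.3.3 and matplotlib 3.10.9. The fit was tested on simulated counts. With the spread (dispersion) of each gene as estimated, it called 4% of genes changed by 1 log2 unit and 34% of those changed by 2. At a fixed dispersion of 0.05 the shares were 51% and 96%. False calls numbered 2 and 4 in these simulations. The changed genes were drawn from all genes kept, whose median SE was 0.38 in the data, against 1.19 for the members. The shares were not measured for the members alone and do not apply to them.

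The members, lists and tests were chosen with earlier results of these data known. Values in every library are given for Mki67, Top2a, Ccnb1, Cdk1, Plk1 and Foxm1, the 2 members of each role with the highest CPM per kb, the 3 with the smallest p, the 2 with the smallest and the 2 with the largest span, the 2 most abundant genes of a related list, and any gene called. Hmmr, Nuf2, Ndc80, Myog and members at 0 counts were named after their values were seen. The result of 1 further marker list is not reported here.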

Additional observations from a re-analysis of the deposited data

How the results depend on the processing

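By edgeR the count of members called was 0 and that of all genes was 0 under TMM, RLE and upper-quartile scaling, under no filter, under a filter of 50 counts in 3 libraries, with a replicate block and without any 1 library, and voom called 0 members. DESeq2 called 20 genes, 11 higher and 9 lower in KO, with 0 members among them. Genes at an unadjusted p under 0.05 numbered 393 in edgeR, 864 with no filter, 518 in DESeq2, 468 in voom and 324 to 818 with 1 library left out.

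The median log2 fold change of the members was 0.03, and 0.02 under RLE, -0.02 under upper-quartile scaling, 0 with no filter, 0 under the stricter filter, 0.02 in DESeq2, -0.4 in voom and -0.27 with the replicate block, where 22 members were positive. Of the 60 further mitosis genes 37 were positive, but 19 in voom and 20 with the replicate block. Positive members numbered 31, and 25 under upper-quartile scaling and 18 in voom. With 1 library left out the median ran from -2.23 to 0.52 and positive members from 2 to 51. Whether replicate numbers pair the libraries was not settled. Correlations of deviations from the group means were 0.24, 0.11 and -0.07 for numbers 1, 2 and 3. They cannot decide it, as no correlations of unmatched numbers stand beside them. WT replicate 1 and KO replicate 1 differed by over 2-fold in 16.59% of genes tested, and other pairs of libraries in 18.01% to 25.03%. The block moved genes at an unadjusted p under 0.05 to 515.

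Some log2 fold changes turned sign, among them those of Top2a (0.44) and Pbk (0.27). Upper-quartile scaling gave Ccnb1 -0.02, Birc5 -0.04, Kif20a -0.01 and Smc2 -0.03. No filter gave Birc5 -0.01 and Smc2 -0.01, and the stricter filter gave Birc5 -0.02. In voom the values were Ccnb1 -0.62, Ccnb2 0.85, Pbk -2.19, Birc5 -1.55, Tpx2 -0.63, Kif20a -0.2, Racgap1 -0.38, Top2a -0.79, Mki67 -1.36 and Smc2 -0.26. With the replicate block they were Ccnb1 -0.46, Ccnb2 0.43, Pbk -1.76, Birc5 -1.17, Tpx2 -0.69, Racgap1 -0.26, Top2a -0.33, Mki67 -0.47 and Smc2 -0.27. The cause was not tested.

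With 1 library left out, the lowest and highest values were -3.59 and 0.96 for Aurkb, -3.75 and 0.58 for Birc5, -0.29 and 0.32 for Bub1b, -3.27 and 0.56 for Ccnb1, -2.82 and 0.47 for Ccnb2, -1.93 and 0.2 for Cdc20, -1.34 and 0.79 for Cdk1, -1.04 and 0.52 for Foxm1, and -0.32 and 0.81 for Incenp. They were -0.57 and 1.46 for Kif15, -1.81 and 0.82 for Kif20a, -2.18 and 0.58 for Kif22, -1.07 and 0.14 for Mad2l1, -3.7 and 0.73 for Mki67, -1.69 and 0.7 for Nusap1, -4.32 and 0.91 for Pbk, -3.6 and 0.85 for Plk1, and -0.19 and 0.19 for Pttg1. For Racgap1 they were -2.11 and 0.58, for Smc2 -1.07 and 0.38, for Smc4 -0.12 and 0.36, for Spc24 -2.21 and 0.34, for Spc25 -0.96 and 0.88, for Top2a -3.76 and 0.99, and for Tpx2 -1.79 and 0.74. They were -1.96 and -0.36 for Ttk and -6.93 and -0.12 for Kif2c. Cdc25b had an unadjusted p under 0.05 by edgeR with no filter, with the block and without WT replicate 1, by DESeq2 and by voom, and no such fit called it after adjustment.

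Depth limits the members near 0 counts in the library labelled WT replicate 2 and in KO replicates 2 and 3, where a count of 0 still allows a level of up to 0.0528 to 0.0723 CPM. With 3 libraries a group, the median SE of the members was 1.19.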

Other observations

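Some genes that control entry into the cell cycle differed between libraries in another order than the mitotic genes did. Ccnd1, encoding cyclin D1, which links growth signals to the cycle, was at 681.0, 102.7 and 132.6 CPM in WT replicates 1 to 3 (the second being the library labelled WT replicate 2) and at 800.0, 135.6 and 90.5 CPM in KO replicates 1 to 3. It was thus high in WT replicate 1 and KO replicate 1 but not in WT replicate 3, which had as much mitotic transcript as WT replicate 1. Ccnd3 was at 615.9, 196.8 and 227.0 CPM and at 689.3, 308.4 and 230.5 CPM, with the same pair of libraries on top. That pair shares a replicate number and is also the pair where Ddx3y was nearly absent, at 0.0354 and 0.141 CPM. The part of sex or of replicate number in this order was not tested. Of the 13 genes for D cyclins and CDK inhibitors, 4 had the order of the mitotic genes, beside 10.8% of all genes tested.

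Myog, encoding myogenin, which acts when myoblasts leave the cycle and differentiate, had the order of the mitotic genes, at 125.3, 14.6 and 168.9 CPM and at 276.1, 24.4 and 22.8 CPM. It was named after its values were seen.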
